A study of Mus musculus with 8 samples.

Results

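Genes of cardiac pacemaking were followed in mouse embryos that lack Isl1 and in wild-type embryos. The set of 8 held 3 genes of the funny current (Hcn2, Hcn3 and Hcn4), 2 genes of L-type calcium channels (Cacna1c and Cacna1d), 2 genes of T-type calcium channels (Cacna1g and Cacna1h) and the transcription factor gene Shox2. They were taken by symbol, 8 of the 20701 gene symbols measured. The rule used no measured value, but it was written with earlier results of these embryos known. Where a symbol had several transcripts, the transcript with the highest summed read count was used. All 8 passed the filter on low counts.

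RNA was sequenced from pharyngeal mesoderm plus heart, with 1 embryo per library, so every value is an average over heart muscle, progenitor cells and the other cells of the dissected region. There were 4 Isl1-/- and 4 wild-type embryos, all C57BL/6, at E8.75 with 6 somites, and no embryo received a treatment. The mutants came from an Isl1 knockout line, with no Cre driver. Per-library totals over 1 transcript per gene were 18916449 to 26153048 reads.

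In the embryonic heart, spontaneous beating rests on inward currents that depolarize the membrane between beats. HCN channels carry the funny current, which opens on hyperpolarization. L-type channels carry the sustained calcium current of the action potential, and T-type channels open at more negative voltages and pass a brief calcium current. Hcn4 is the main HCN gene of the sinoatrial node and is expressed earlier in cardiac progenitors and the heart tube. Cacna1d encodes Cav1.3, an L-type channel of node cells that opens at lower voltages than Cav1.2, the product of Cacna1c, which is the principal calcium channel of working myocardium. Shox2 encodes a homeodomain factor of the venous pole that restrains the working myocardial program in node precursors. Isl1 encodes a LIM-homeodomain factor of cardiac progenitors that is also kept in sinoatrial node cells.

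Hcn4 and Cacna1d fell in the knockout, to 40.9% and 31.9% of their wild-type means. The upstream sequences of these 2 genes are shown because they are the members whose change passed the test. RefSeq promoter sequences (build GRCm38.p6) were at hand for 5 of the 8 members, Hcn2, Hcn4, Cacna1c, Cacna1d and Shox2. The 250 bases before each start were read 5′ to 3′ on the strand of the gene, and 4 short motifs were searched on both strands: TAAT, the homeodomain core; AAGTG, of the NKX2-5 type; AGGTGT, of the T-box type; and AGATAA, of the GATA type. Capitals mark a match, in either orientation, and none of the matches overlapped. Hcn4 has 1 start (chr9:58822699-58822948, plus strand) and Cacna1d has 2 starts (chr14:30491157-30491406 for the upstream one and chr14:30353487-30353736 for the downstream one, minus strand).
Hcn4: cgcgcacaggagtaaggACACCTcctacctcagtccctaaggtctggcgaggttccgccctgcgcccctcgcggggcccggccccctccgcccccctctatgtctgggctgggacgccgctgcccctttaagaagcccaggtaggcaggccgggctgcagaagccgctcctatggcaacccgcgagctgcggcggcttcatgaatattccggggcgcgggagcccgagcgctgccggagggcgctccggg
Cacna1d, upstream start: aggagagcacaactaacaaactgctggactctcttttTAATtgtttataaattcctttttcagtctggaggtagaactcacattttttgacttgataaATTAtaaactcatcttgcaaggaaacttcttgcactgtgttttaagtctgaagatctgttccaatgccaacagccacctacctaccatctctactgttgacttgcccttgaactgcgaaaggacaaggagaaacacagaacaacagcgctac
Cacna1d, downstream start: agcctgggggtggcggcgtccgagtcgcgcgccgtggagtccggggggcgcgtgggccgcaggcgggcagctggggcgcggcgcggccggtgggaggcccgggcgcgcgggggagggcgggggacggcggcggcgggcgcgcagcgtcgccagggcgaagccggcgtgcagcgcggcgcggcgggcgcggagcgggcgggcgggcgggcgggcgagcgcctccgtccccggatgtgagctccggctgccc

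The Hcn4 window held 1 T-box type match, 233 bases before the start, a motif present in 11.8% of all 32851 promoter windows of that length. The upstream window of Cacna1d held 2 matches of the homeodomain core, which 54.9% of all windows contain, and its downstream window held no match. Outside these genes, the Shox2 window had 1 homeodomain core match, and the windows of Hcn2 and Cacna1c had none of the 4 motifs. The NKX2-5 type and GATA type motifs, found in 40.7% and 9.99% of all windows, were in none of the windows of these 5 members. Base composition differed widely, from 39.6% G and C in the upstream window of Cacna1d to 71.2% in the window of Hcn4 and 86.4% in the downstream window of Cacna1d, against a median of 52.4%. A match of this kind describes the letters only.

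The targeted gene was examined first. Isl1 (chromosome 13, 117088478 to 117099896, minus strand, mm9) averaged 2.16 ± 0.276 counts per 1e6 reads (CPM) in the knockout and 17.4 ± 8.98 CPM in the wild-type (SD, n = 4 each). The wild-type values were uneven, at 9.7, 9.8, 26.9 and 23.3 CPM in embryos 1 to 4, and all lay above the knockout values. Of the 14075 genes fitted, 137 passed an edgeR FDR of 0.05 (0.973%) and 122 of them were lower in the knockout (0.867%). Y-linked genes were above 1 CPM in 3 knockout embryos and 1 wild-type embryo, so sex was unevenly spread over the genotypes. With their level as a covariate, Hcn4 (-1.34) and Cacna1d (-1.74, both on the log2 scale) remained past the FDR. The label of knockout embryo 2 reads total RNA and that of the 7 others polyA RNA.

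Of the 8 members, 2 passed the FDR, both lower. The same 2 passed a 1.5-fold change with an unadjusted edgeR p under 0.05, which 3.93% of all genes did. An unadjusted p under 0.05 was reached by 4 members (Hcn4, Cacna1d and Cacna1c lower, Cacna1g higher) and by 17.4% of all genes. The 2 genotypes did not overlap in 3 members (Hcn4, Cacna1d and Cacna1c), against 10.3% of all genes. The median log2 fold change of the members was -0.39, beside 0.01 over all genes fitted.

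**Figure D1:**
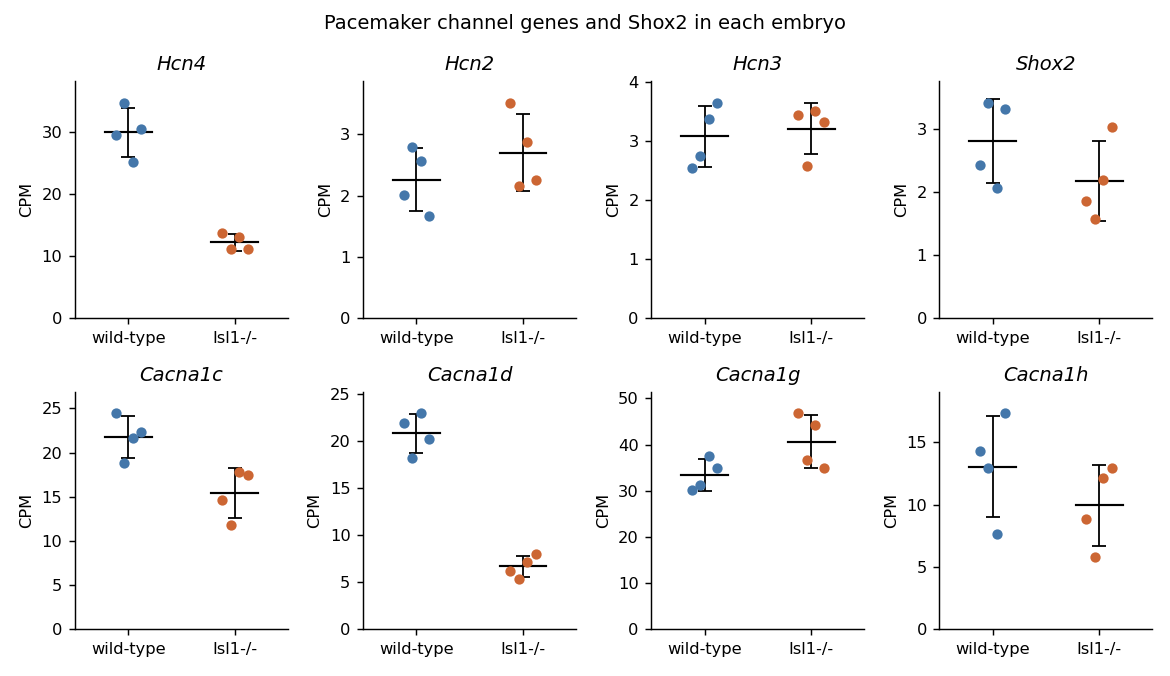
CPM of the 8 members in each embryo, with axes that start at 0. Points are single embryos (blue wild-type, orange Isl1-/-), the horizontal line is the mean and the bar the SD of 4 embryos. The genotypes are apart for Hcn4, Cacna1c and Cacna1d and overlap for the other members.

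Among the funny current genes, only Hcn4 passed the test. Hcn4 (NM_001081192, chromosome 9, 58671319 to 58708762, plus strand, mm9) was at 29.6, 34.8, 25.2 and 30.5 CPM in the 4 wild-type embryos (1 to 4, in that order throughout), against 13.7, 11.1, 13.1 and 11.1 CPM in the 4 knockout embryos. The lowest wild-type embryo stood well above the highest knockout embryo, and the 4 knockout values lay close together. The means were 30.0 ± 3.94 and 12.3 ± 1.34 CPM (SD, n = 4 each), a log2 fold change of -1.29 (SE 0.12, edgeR FDR 0.0019). The exact two-sided permutation test of the CPM gave p = 0.0286, the smallest value that 4 against 4 embryos allow. In these whole-tissue libraries, fewer expressing cells and less RNA per cell cannot be told apart.

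Hcn2 and Hcn3, the other funny current genes in the set, are more prominent in neurons. Hcn2 (NM_008226, chromosome 10, 79179379 to 79198853, plus strand, mm9) was at 2.0, 2.79, 2.57 and 1.67 CPM in the wild-type and 3.52, 2.16, 2.88 and 2.25 CPM in the knockout, on 44 to 91 reads per library. Hcn3 (NM_008227, chromosome 3, 88949996 to 88964118, minus strand, mm9) was at 2.55, 2.75, 3.37 and 3.65 CPM in the wild-type and 3.44, 2.57, 3.5 and 3.33 CPM in the knockout. The genotypes overlapped in both genes. Their log2 fold changes were 0.26 (SE 0.23, edgeR FDR 0.607) and 0.06 (SE 0.18, edgeR FDR 0.895), and that of Hcn3 became -0.13 with the Y-linked covariate and -0.02 without wild-type embryo 1. That of Hcn2 was 0.10 without knockout embryo 1 and 0.14 without wild-type embryo 4. On the log2 scale, 2 SE on either side of the estimate ran from -0.21 to 0.73 for Hcn2 and from -0.31 to 0.42 for Hcn3.

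On a length-scaled basis (CPM per kb of transcript), Hcn4 made up 82.5% ± 2.93 of the summed levels of Hcn2, Hcn3 and Hcn4 in the wild-type, against 63.9% ± 1.87 in the knockout (SD, n = 4 each). The lowest wild-type share was 78.3% and the highest knockout share 66.7%, so the genotypes did not overlap.

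The 2 L-type genes differed in the size of their change. Cacna1d (NM_028981, chromosome 14, 30853135 to 31304342, minus strand, mm9) was at 21.9, 18.2, 22.9 and 20.2 CPM in the wild-type and at 6.11, 5.35, 7.16 and 7.93 CPM in the knockout. Every knockout embryo lay below every wild-type embryo by a wide margin. Its means were 20.8 ± 2.07 and 6.64 ± 1.14 CPM (SD, n = 4 each), a 3.13-fold reduction and a log2 fold change of -1.65 (SE 0.14, edgeR FDR 0.0019), which was at place 3 by p among all 14075 genes. The last 5.54% of its exon bases in the annotation are shared with Chdh on the other strand. Chdh averaged 2.77 and 2.55 CPM in wild-type and knockout embryos, with a log2 fold change of -0.12 (edgeR FDR 0.917), below the level of Cacna1d in both.

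Cacna1c (NM_001255998, chromosome 6, 118542314 to 119146249, minus strand, mm9) was at 24.4, 18.8, 21.6 and 22.3 CPM in the wild-type and 14.6, 11.7, 17.8 and 17.4 CPM in the knockout. The lowest wild-type embryo (18.8 CPM) was just above the highest knockout embryo (17.8 CPM). The means were 21.8 ± 2.35 and 15.4 ± 2.84 CPM (SD, n = 4 each). The log2 fold change of -0.50 (SE 0.14) did not pass the edgeR FDR (0.129), while DESeq2, by its Wald test, placed it past the threshold (adjusted p = 0.0294). The 11 deposited transcripts of Cacna1c held nearly the same reads, with totals of 3156 to 3465 over the 8 libraries.

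On the length-scaled basis, the ratio of the 2 L-type genes crossed 1. Taken per kb of transcript, Cacna1c stood at 0.723, 0.667, 0.609 and 0.713 times the level of Cacna1d in the 4 wild-type embryos, and at 1.54, 1.42, 1.61 and 1.42 times its level in the 4 knockout embryos. On this scale Cacna1d was the higher of the pair in all 4 wild-type embryos and the lower in all 4 knockout embryos. The crossing depends on the transcript lengths used (13365 bases for Cacna1c and 8636 for Cacna1d). In CPM, without length scaling, Cacna1c was the higher in every wild-type embryo except embryo 3 (21.6 against 22.9 CPM). The log2 ratio, taken with 0.1 CPM per kb added to both levels, differed by 1.06 between genotypes (exact permutation p = 0.0286, 0.0343 adjusted over the 6 ratios compared). The share of Cacna1d in the L-type sum was 59.6% ± 1.87 in the wild-type, against 40.1% ± 1.5 in the knockout (SD, n = 4 each).

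The T-type genes showed no fall that passed the test. Cacna1g encodes Cav3.1 and Cacna1h encodes Cav3.2, the main T-type channels of the embryonic heart. Cacna1g (NM_001112813, chromosome 11, 94269705 to 94335414, minus strand, mm9) was at 30.1, 31.1, 37.5 and 34.9 CPM in the wild-type and 46.8, 36.6, 44.2 and 34.9 CPM in the knockout. The 2 genotypes overlapped, with knockout embryos 1 and 3 above all wild-type embryos and none of the knockout embryos below 34.9 CPM. The log2 fold change came to 0.28 (SE 0.12, edgeR FDR 0.249), and 2 SE on either side ran from 0.05 to 0.51.

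Cacna1h (NM_021415, chromosome 17, 25511230 to 25570728, minus strand, mm9) was at 14.3, 12.9, 7.63 and 17.3 CPM in the wild-type and 8.85, 5.80, 12.1 and 12.9 CPM in the knockout. Wild-type embryo 3 lay among the knockout values, and the spread was wide in both genotypes. The log2 fold change of -0.40 (SE 0.29, edgeR FDR 0.506) did not pass the test. It was -0.21 without knockout embryo 2, -0.23 without wild-type embryo 4 and -0.81 with the Y-linked covariate, none of them past the FDR. Tpsg1, which shares 1.61% of the exon bases of Cacna1h on the other strand, was at or below 0.488 CPM in every library.

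Summed per kb of transcript, the L-type genes came to 4.04 ± 0.383 in the wild-type, against 1.92 ± 0.339 in the knockout, and the T-type genes to 5.71 ± 0.475 and 6.21 ± 0.82 (CPM per kb, SD, n = 4 each). L-type sums of 3.51 to 4.36 in the wild-type did not meet those of 1.5 to 2.22 in the knockout, while T-type sums overlapped. T-type genes thus took 58.6% ± 2.99 of the 4 calcium channel genes in the wild-type, against 76.4% ± 2.84 in the knockout. The lowest knockout share was 72.6% and the highest wild-type share 61.6%.

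**Figure D2:**
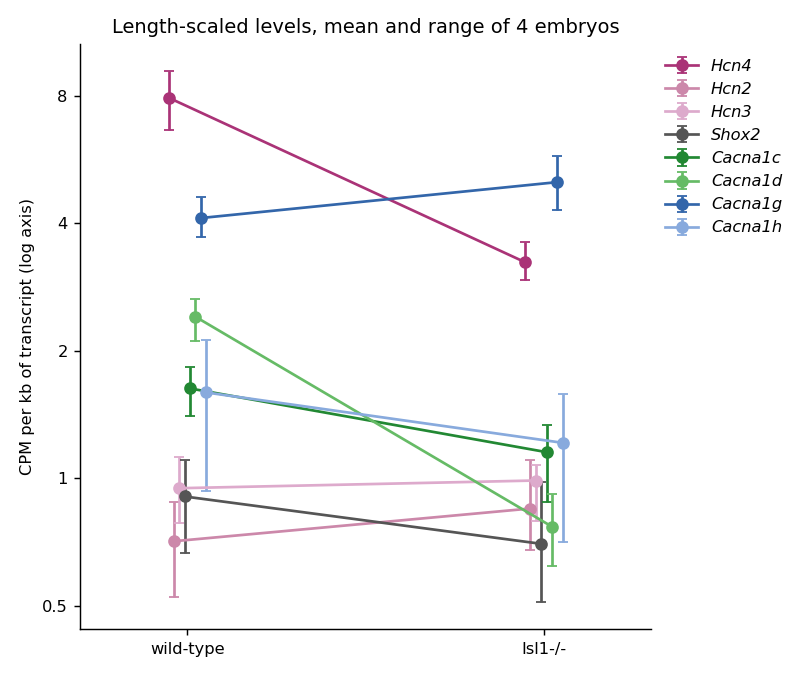
Length-scaled levels of the 8 members (CPM per kb of transcript, log axis) in wild-type and Isl1-/- embryos. Points are means and bars run from the lowest to the highest of 4 embryos. On this length-scaled measure Hcn4 leads in the wild-type and Cacna1g in the knockout, and Cacna1d moves from the third to the seventh place. The order depends on the transcript lengths used.

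The order of the length-scaled levels changed with genotype. It depends on the transcript lengths used, such as 3788 bases for Hcn4 and 8117 for Cacna1g. In CPM, without length scaling, Cacna1g averaged 33.4 and Hcn4 30.0 in the wild-type. There Hcn4 was the higher only in wild-type embryo 2 (34.8 against 31.1 CPM). The levels that follow are length-scaled. In the wild-type, Hcn4 (7.92 ± 1.04 CPM per kb) stood above Cacna1g (4.11 ± 0.422), Cacna1d (2.41 ± 0.24) and Cacna1c (1.63 ± 0.176), and the ranges of these neighbours did not overlap. Below them came Cacna1h (1.59 ± 0.495), Hcn3 (0.947 ± 0.159), Shox2 (0.905 ± 0.214) and Hcn2 (0.71 ± 0.161), each with a range that met that of its neighbour, as did the ranges of Cacna1c and Cacna1h. In the knockout, Cacna1g (5.0 ± 0.71) stood above Hcn4 (3.24 ± 0.355), and Hcn4 above Cacna1h (1.21 ± 0.399), with no overlap between these 3 neighbours. All lower neighbours overlapped, down to Cacna1d (0.768 ± 0.132) and Shox2 (0.7 ± 0.205). Values are means ± SD of 4 embryos.

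**Figure D3:**
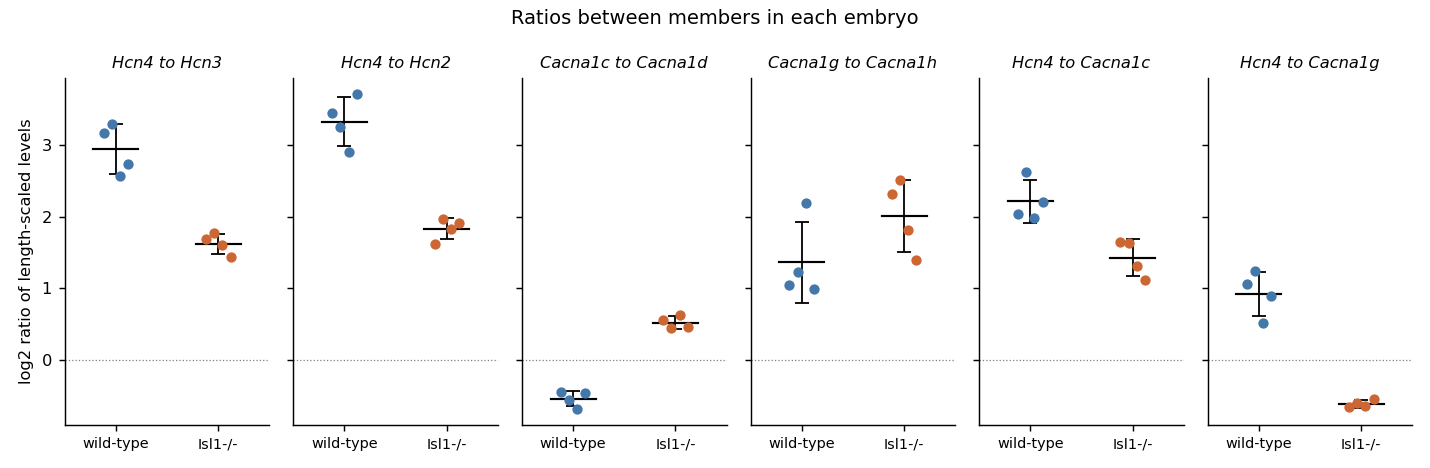
Log2 ratios of length-scaled levels (with 0.1 CPM per kb added) for the 6 pairs, 1 point per embryo, with the mean and SD of 4 embryos; the dotted line marks equal levels. The genotypes are apart in 5 pairs and overlap for Cacna1g to Cacna1h, and the values lie on opposite sides of the line for Cacna1c to Cacna1d and for Hcn4 to Cacna1g. On which side of the line a value lies depends on the transcript lengths used.

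Ratios between members were compared in 6 pairs, with 0.1 CPM per kb added to both levels for the log2 values and their tests and nothing added for the plain ratios. Hcn4 stood at 1.44 to 2.39 times the level of Cacna1g in the wild-type and at 0.627 to 0.682 times its level in the knockout. The knockout ratios were close to one another and all below 1. On which side of 1 a ratio lies depends on the transcript lengths used. The difference in log2 ratio was -1.53, beside -0.79 for Hcn4 to Cacna1c (with ratios of 4.11 to 6.54 and of 2.25 to 3.34). Within the HCN family, Hcn4 fell from 6.41 to 10.9 times the level of Hcn3 in the wild-type to 2.87 to 3.71 times in the knockout, and from 8.23 to 15.3 times the level of Hcn2 to 3.27 to 4.33 times. The genotypes did not overlap in any of these 4 ratios (exact two-sided permutation p = 0.0286 and adjusted p = 0.0343 for each). All 4 have Hcn4 as the numerator, so they share its fall and are not 4 independent results. Only the ratio of Cacna1g to Cacna1h overlapped, at 2.03 to 4.96 in the wild-type, against 2.73 to 6.36 in the knockout (exact permutation p = 0.143, also after adjustment).

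Shox2 was low in both genotypes. It (NM_001302357, chromosome 3, 66775649 to 66785693, minus strand, mm9) was at 2.42, 3.41, 2.06 and 3.31 CPM in the wild-type and 1.86, 1.58, 2.20 and 3.04 CPM in the knockout, on 38 to 87 reads per library. Knockout embryos 3 and 4 lay within the wild-type range, and the groups overlapped. Its log2 fold change came to -0.38 (SE 0.25, edgeR FDR 0.475), and 2 SE on either side ran from -0.89 to 0.13. The estimate ran from -0.58 (without knockout embryo 4) to -0.24 (without knockout embryo 2) when 1 embryo was left out and was -0.61 with the Y-linked covariate, and it passed the FDR in none of these fits.

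The 4 deposited transcripts of Shox2 differed in length and in reads. The 1070-base transcript held 103 reads over the 8 libraries and the 3095-base transcript 461, so most reads came from the part that only the longer ones include. The short transcript had 9, 20, 13 and 20 reads in the wild-type embryos, beside 10, 4, 11 and 16 reads in the knockout embryos. In the annotation 4.54% of the Shox2 exon bases are shared with Rsrc1 on the other strand, which was at 72.6 and 67.3 CPM in wild-type and knockout embryos. Likewise 17.1% of the Hcn3 exon bases are shared with Pklr (5.13 and 7.55 CPM). Reads of both strands were counted, so such reads cannot be assigned to one gene.

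The decrease was then set beside that of heart muscle genes. All 10 cardiomyocyte genes examined (Tnnt2, Tnni1, Tnnc1, Myl4, Myl7, Myh6, Myh7, Actn2, Actc1 and Mybpc3), which encode sarcomere proteins, fell in the knockout past the edgeR FDR, and the median of their log2 fold changes was -0.96. Their summed level was 3000 to 4390 CPM in the wild-type and 1640 to 2400 CPM in the knockout, and none of them was at 0. A cardiomyocyte index, the mean log2 CPM of the 10 genes, was 8.07 ± 0.234 in the wild-type, against 7.13 ± 0.229 in the knockout (SD, n = 4 each; exact permutation p = 0.0286). The list was drawn up with earlier results of these embryos known, so its direction is not independent evidence.

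**Figure D4:**
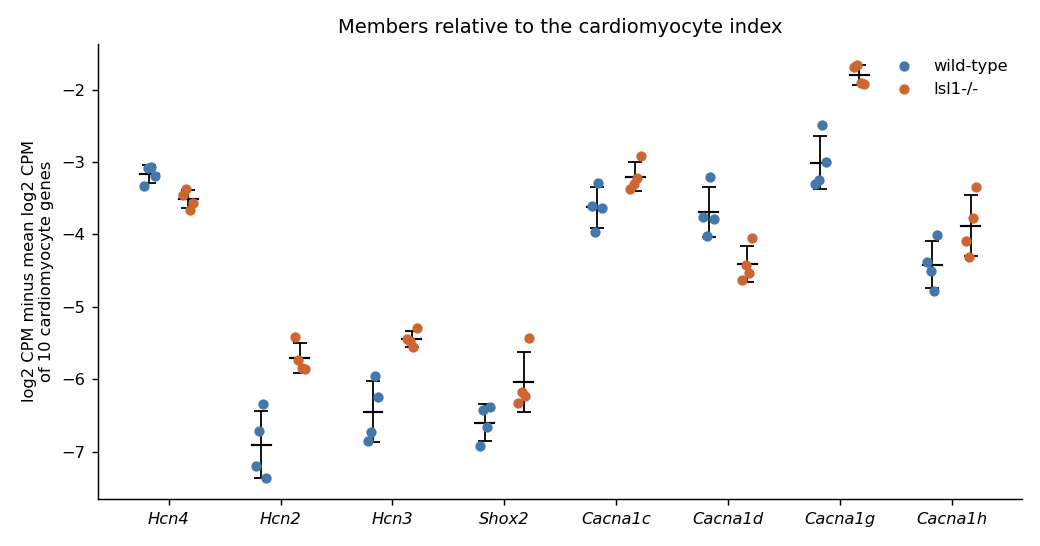
Log2 CPM of each member minus the mean log2 CPM of 10 cardiomyocyte genes, 1 point per embryo, with the mean and SD of 4 embryos. Isl1-/- embryos lie below the wild-type for Hcn4 and Cacna1d and above it for Hcn2, Hcn3, Shox2 and Cacna1g.

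Relative to that index, Hcn4 was at -3.17 ± 0.121 in the wild-type, against -3.52 ± 0.123 in the knockout (log2 scale, SD, n = 4 each). The difference of -0.35 was smaller than the change of Hcn4 itself. The genotypes did not overlap, but the gap was narrow, with the lowest wild-type value at -3.33 and the highest knockout value at -3.38. Cacna1d was at -3.69 ± 0.348 and -4.41 ± 0.251, a difference of -0.72. Cacna1g was at -3.01 ± 0.371 and -1.79 ± 0.138, so that it stood 1.22 higher against the index in the knockout. The differences of Hcn2 (1.19), Hcn3 (1.0) and Shox2 (0.56) also had no overlap. In these 6 members the exact two-sided permutation p was 0.0286 (0.0381 adjusted over the 8 members).

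Cacna1c and Cacna1h differed from the index by 0.43 (exact permutation p = 0.0857) and 0.54 (p = 0.114, also exact), with overlap. Hcn4 and Cacna1d thus had differences below 0, and the other 6 members had differences above 0, of which 4 had no overlap (Hcn2, Hcn3, Shox2 and Cacna1g). With 1 embryo left out, which leaves 3 against 4, the exact p rose to as much as 0.0571 for Hcn4, Cacna1d, Cacna1g, Hcn2 and Hcn3 and to 0.0857 for Shox2. The genotypes of these members still did not overlap. With groups of unequal size the p depends on which group holds the more extreme values, so the rise alone does not show weaker separation. With Tnnt2 alone in place of the index, the exact p was 0.0571 for Cacna1d and 0.114 for Shox2. Because the index itself fell, a difference above 0 is a difference in ratio and not a rise in level. The index was lower by 0.94 in the knockout, so a member with no change would stand above it by that amount. For Hcn2, Hcn3, Shox2 and Cacna1g, the p of the ratio is therefore no test of a change in the member itself. Whether the share of cardiomyocytes in the dissected tissue differed was not tested.

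Markers of other cell types were read in the same way. None of the 8 neural, 5 endothelial, 5 erythroid, 6 endodermal and 5 fitted pharyngeal mesoderm markers (of 6) passed the FDR, and none was at 0 in all libraries. That FDR was passed by 0.973% of all genes fitted, so the absence of calls in lists this short says little. Their summed levels overlapped between genotypes, at 303 to 347 CPM in the wild-type and 309 to 413 CPM in the knockout for the neural list. Median log2 fold changes were 0.10 (neural), -0.14 (endothelial), 0.48 (erythroid), 0.15 (endodermal) and 0.03 (pharyngeal mesoderm). Within the pharyngeal list, Tbx1 was higher (0.98, edgeR FDR 0.248, with overlap) and Fgf10 lower (-0.55, edgeR FDR 0.148, without overlap). Hcn2, Hcn3 and the calcium channel genes are also neuronal genes. Of 6 markers of venous pole mesenchyme, the tissue beside which the node forms, 1 passed: Wnt2, at 40.9 ± 3.27 CPM in the wild-type and 27.3 ± 2.08 CPM in the knockout (SD, n = 4 each; log2 fold change -0.59, edgeR FDR 0.0118). The list as a whole showed no common direction: 3 of the 6 had log2 fold changes below 0, and the median was -0.02. The part of cell composition in the members' changes was not tested.

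**Figure D5:**
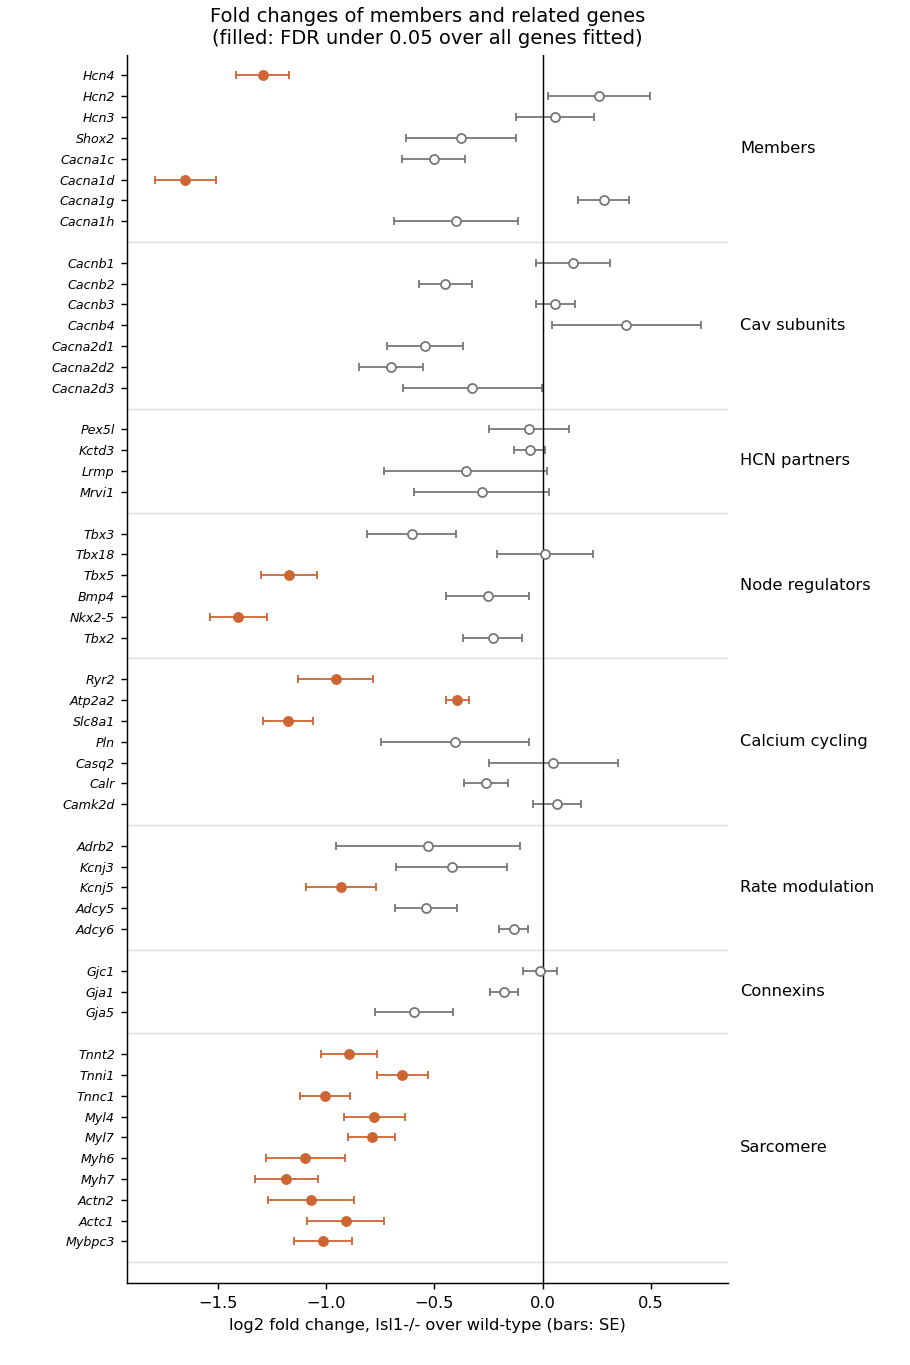
Log2 fold change of Isl1-/- over wild-type embryos for the members and the fitted genes of related lists, with bars for the SE. Filled orange points passed an edgeR FDR of 0.05 over all genes fitted. Hcn4 (-1.29, SE 0.12) lies just beyond the lowest sarcomere gene, Myh7 (-1.18, SE 0.15), by less than 1 SE, and Cacna1d lies further out. Nkx2-5 is at -1.40, Slc8a1 at -1.18 and Tbx5 at -1.17, and no filled point lies above 0.

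Other genes of the pacemaking machinery were read from lists of fixed membership. Among the 10 pore subunit genes of voltage-gated calcium channels, 9 were fitted and Cacna1d was the only one past the FDR. Of the 8 auxiliary subunit genes, which set the trafficking and gating of the pore, 7 were fitted and none passed. The lowest FDR belonged to Cacna2d2 (57.4 ± 8.32 and 35.3 ± 6.35 CPM, log2 fold change -0.70, edgeR FDR 0.0614) and Cacnb2 (18.9 ± 2.11 and 13.9 ± 1.70 CPM, -0.45, edgeR FDR 0.114). Their genotypes did not overlap. Of 6 genes for proteins that bind or regulate HCN channels 4 were fitted and none passed, with Lrmp (-0.35, edgeR FDR 0.665) and Mrvi1 (-0.28, edgeR FDR 0.683) nearest to the threshold.

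Of the 7 transcription factor and signalling genes examined that are tied to the sinus node or its borders, 2 passed the FDR. Nkx2-5, which encodes a homeodomain factor of the working myocardium that is kept out of the node, was at 25.4 ± 2.97 CPM in the wild-type and 9.58 ± 1.35 CPM in the knockout (log2 fold change -1.40, edgeR FDR 0.0019). Tbx5, a T-box factor gene needed for atrial and venous pole identity, was at 28.5 ± 3.17 and 12.7 ± 1.81 CPM (-1.17, edgeR FDR 0.003). Of the other 5 (Shox2, Tbx3, Tbx18, Bmp4 and Tbx2), none passed, and the median over the list was -0.38. Neither of the 2 called genes marks node cells alone.

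Calcium cycling between the sarcoplasmic reticulum and the cell exterior works together with the membrane channels in beating cells. Of its 7 genes 3 passed, all lower: Slc8a1, the sodium-calcium exchanger (283 ± 27.3 and 125 ± 19.5 CPM, log2 fold change -1.18, edgeR FDR 0.0021), Atp2a2, the reticulum calcium pump (709 ± 19.6 and 540 ± 12 CPM, -0.39, edgeR FDR 0.0067), and Ryr2, the calcium release channel (89.4 ± 14.1 and 46.1 ± 11.3 CPM, -0.96, edgeR FDR 0.0384). The median over the 7 was -0.39. Of 7 genes for autonomic control of rate, 5 were fitted and 1 passed: Kcnj5, a subunit of the acetylcholine-gated potassium channel (22.5 ± 3.08 and 11.8 ± 2.41 CPM, -0.93, edgeR FDR 0.0293). Of 4 connexin genes of the node and its surroundings 3 were fitted and none passed, with Gja5 (-0.59, edgeR FDR 0.143) and Gja1 (-0.18, edgeR FDR 0.208) lowest in FDR.

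The genes whose embryo-to-embryo pattern was most like that of Hcn4 and Shox2 were named as a description. Each genotype's mean was subtracted from log2 CPM and Pearson's r was taken over the 8 embryos against 9795 genes of at least 10 CPM on average. For Hcn4 these were Wfdc2 (r = 0.976), Kif22 (r = 0.967), Ercc1 (r = 0.961), Smyd1 (r = 0.959) and Tnni1 (r = 0.944). Of the 5, Smyd1, which encodes a muscle methyltransferase, and the troponin gene Tnni1 were also lower in the knockout past the edgeR FDR. For Shox2 they were Ice2 (r = 0.981), Ogt (r = 0.98), Uckl1 (r = 0.975), Zfhx3 (r = 0.963) and Zfp874a (r = 0.962), none of which passed the FDR. These genes were picked as the highest of 9795 values of r, and the points share library and depth.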

How the data were processed

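RNA sequencing of 8 single-embryo samples was used. The authors mapped reads to mm9 with STAR, counted those over RefSeq transcript exons on both strands with HOMER and deposited raw counts per transcript. The deposited RPKM values, scaled to transcript length in kb and to 1e6 reads, were made by the authors with edgeR, and recomputing them gave differences of at most 0.000492. Tool versions were not given in the sources used here. The same table holds the authors' DESeq2 comparison (mean, fold change, error, statistic and p-values), which was not used.

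For each symbol the transcript with the highest summed count was kept (20701 of 31507 transcripts). Counts were fitted with the quasi-likelihood test of edgeR 4.0.16 (R 4.3.3; filterByExpr, TMM scaling, genotype as the only term, two-sided, Benjamini-Hochberg over 14075 genes). CPM values are TMM-scaled, and length-scaled levels are CPM per kb. Log2 pair ratios and their tests added 0.1 CPM per kb to each level (plain ratios added nothing), and log2 CPM used a prior count of 0.5. Single values were put to exact permutation tests, two-sided. Alternatives used DESeq2 1.42.0, limma 3.58.1, another scaling, no filter, other transcripts, covariates and omission of single embryos. Nothing says that embryos came from separate litters, and reads carry no molecular identifiers, so p-values cover the spread between these samples only.

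All 8 members are described. List genes past the FDR are named, up to 4 a list, or the 2 with the lowest FDR where none passed, and the antisense partners and the other list values were added after their values were seen. Some genes are not reported here. The members and lists were chosen with earlier results of these data known. Gene positions came from GENCODE vM1 (mm9), promoters from RefSeq (GRCm38.p6). Tables were made with Python 3.11.15 and pandas 2.3.3.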

Additional observations from a re-analysis of the deposited data

Results flagged for a closer look

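Knockout embryo 4 stood apart in the level of Shox2 relative to the cardiomyocyte index, at -5.43 on the log2 scale against -6.33 to -6.18 in the other 3 knockout embryos. The gap to its nearest neighbour took up most of the range of the group, just past the limit of Dixon's test for 4 values. Shox2 rested on 62 reads in that library. Without this embryo the difference from the wild-type was 0.35 in place of 0.56. Of 44 groups examined in this way, this was the only one set apart, where chance alone sets apart about 1 in 20.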

How the results depend on the processing

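The 2 members past the FDR were Hcn4 and Cacna1d under each of the 15 alternatives, with log2 fold changes of -1.37 to -1.03 and of -1.75 to -0.91. The ends at -1.03 and -0.91 came from limma on log2(RPKM + 1). There the added 1 makes the fold changes of low levels smaller, so these ends are on another scale. Cacna1c joined them under the DESeq2 Wald test (-0.50, adjusted p = 0.0294; range of the adjusted p over the alternatives 0.0294 to 0.338). Hcn3 turned from 0.06 to -0.13 with Y-linked expression as a covariate and ranged from -0.02 (without wild-type embryo 1) to 0.16 with 1 embryo left out; without wild-type embryo 1 its CPM difference also turned, to -0.05 (up to 0.35 without another embryo). The number of genes past the FDR, 137, was 699 by DESeq2 and 70 to 490 with 1 embryo left out. Genes past the fold and unadjusted p numbered 165 by limma on log2(RPKM + 1), in place of 553. How far that scale accounts for the lower number, and the causes of the other shifts, were not tested.

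All 60 alternatives of the 6 pair ratios kept their direction and their side of the threshold. Of the 88 alternatives of the index ratios 57 did so and none reversed. Most of the others were fits of Hcn2, Hcn3, Hcn4, Cacna1d, Cacna1g and Shox2 with 1 embryo left out. In those fits the genotypes still did not overlap, and the exact p depends on the unequal group sizes. Cacna1c instead moved past the threshold without wild-type embryo 3 and with Tnnt2 alone. With Tnnt2 alone the differences were 0.40 for Cacna1c (exact p = 0.0286), -0.74 for Cacna1d (exact p = 0.0571) and 0.53 for Shox2 (exact p = 0.114). With 1 embryo left out, the differences ranged over 1.04 to 1.38 for Hcn2, 0.87 to 1.17 for Hcn3, -0.40 to -0.30 for Hcn4, 0.31 to 0.54 for Cacna1c, -0.84 to -0.55 for Cacna1d, 1.12 to 1.39 for Cacna1g and 0.35 to 0.65 for Shox2. The exact p then reached 0.0571 (0.0857 for Shox2, 0.143 for Cacna1c). The CPM difference of Cacna1c ranged from -7.39 to -5.17.

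Same-numbered embryos correlated at 0.109, 0.212, 0.0863 and 0.507 in their deviations from the group means. Differently numbered embryos were not compared, so these values do not settle whether the numbers mark pairs. The main fit had no pairing term. With a replicate block, 76 genes passed the FDR, Hcn4 was at -1.29 (edgeR FDR 0.012) and Cacna1d at -1.66 (edgeR FDR 0.0068), and no member changed its call. With 1 embryo left out, log2 fold changes ranged over 0.10 to 0.38 for Hcn2, -0.59 to -0.21 for Cacna1h and -0.58 to -0.24 for Shox2. Depth limits Hcn2, Hcn3 and Shox2, which had at most 96 reads in any library.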
